A study of Mus musculus with 8 samples.

Results

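Nucleotide and one-carbon synthesis genes were followed in mouse natural regulatory T (nTreg) cells after editing with a guide RNA against Foxp3, before and after stimulation of the T cell receptor (TCR). They were 32 genes of 55665 in the deposited tables, chosen by name as enzymes of 4 groups of steps: 9 of deoxynucleotide synthesis, 11 of purine synthesis, 3 of pyrimidine synthesis and 9 of serine and folate metabolism. All 32 were among the 16642 genes with enough counts to test. RNA was sequenced from CD4 T cells of spleen and lymph nodes that expressed a GFP reporter of Foxp3, were sorted by flow cytometry and then cultured. All cells were heterozygous for a Cas9 transgene at the Rosa locus (RosaCas9/+ Foxp3gfp), so the control cells carried Cas9 and the reporter as well. There were 4 groups of 2 libraries: the Foxp3 guide (sgFoxp3) after 3 h of restimulation with antibodies to CD3 and CD28, the control guide (sgNC) after the same 3 h, the Foxp3 guide with mock treatment in buffer (0 h), and the control guide with mock treatment (0 h). The labels give neither the age of the mice nor the number of animals or cultures behind a library, and p-values therefore reflect how far libraries of a group differ, a spread that may be only technical.

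Cells make purines stepwise on a ribose phosphate, and pyrimidines as a ring that is joined to the ribose phosphate later. Ribonucleotide reductase turns ribonucleotides into the deoxynucleotides of DNA, and thymidylate synthase adds the methyl group that makes thymidylate. One-carbon units for purines and thymidylate are carried by folate and come mostly from serine, which cells import or make from a glycolytic intermediate, and activated T cells are known to need these pathways to divide.

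Library totals ran from 55865290 to 94807362 expected counts (Foxp3 guide, 3 h), 45518491 to 48626432 (control guide, 3 h), 64135431 to 66804803 (Foxp3 guide, 0 h) and 38729009 to 42698042 (control guide, 0 h). The targeted gene was read first. Foxp3 had 76.1 and 71.8 CPM (counts scaled by library size with TMM) with the Foxp3 guide at 3 h, against 679 and 673 with the control guide, and 87.6 and 88.5 CPM with the Foxp3 guide at 0 h, against 764 and 776 with the control guide. It fell by 3.20 on the log2 scale at 3 h (SE 0.0438) and by 3.13 at 0 h (SE 0.0434), so the labels and the transcript go together. Markers of CD4 T cells (Cd3e, Cd3g, Cd4, Trac) summed to between 926 and 1335 CPM in the 8 libraries. Treg markers (Foxp3, Ikzf2, Il2ra, Ctla4) summed to 3599 to 3618 CPM (Foxp3 guide, 3 h), 7040 to 7243 (control guide, 3 h), 1148 to 1181 (Foxp3 guide, 0 h) and 3327 to 3333 (control guide, 0 h). With stimulation 2 of the 4 were higher and 2 lower under each guide. Il2ra rose most, by log2 changes of 3.36 (Foxp3 guide) and 1.95 (control guide), while Foxp3 changed by -0.253 and -0.187. Summed markers of B cells, CD8 T cells, NK cells, myeloid cells and stromal cells were each at or below 9.43 CPM in each library. The NK sum was 3.78 to 4.51 CPM (Foxp3 guide) against 9.37 to 9.43 CPM (control guide) at 3 h, and 3.58 to 3.88 CPM against 2.02 to 2.35 CPM at 0 h. Most of it was Eomes, while Klrb1c was at or below 1.11 CPM in each library and Ncr1 was at 0 in 7 of 8. The erythroid sum was 71.0 to 72.3 CPM (Foxp3 guide) against 6.48 to 6.49 CPM (control guide) at 3 h, and 64.8 to 65.6 CPM against 8.09 to 8.32 CPM at 0 h, nearly all of it from Hba-a1, while Alas2 was at or below 0.0222 CPM in each library; the part of this signal in the results was not tested.

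The summed level of the 32 genes differed by guide and by time. It was 4574 to 4736 CPM with the Foxp3 guide at 3 h, against 3893 to 3909 with the control guide, and 2471 to 2510 CPM with the Foxp3 guide at 0 h, against 1440 to 1454 with the control guide. The sum was thus higher with the Foxp3 guide at both times, and higher at 3 h with both guides, without overlap between groups. Summed TPM kept this order, but the guides were closer at 3 h, at 3253 and 3316 (Foxp3 guide) against 3099 and 3088 (control guide). In these bulk libraries, fewer cells of a type and less RNA per cell cannot be told apart. The 4 groups of steps did not share this pattern. Deoxynucleotide genes summed to 851 to 929 CPM (Foxp3 guide, 3 h), 577 to 611 (control guide, 3 h), 1258 to 1275 (Foxp3 guide, 0 h) and 429 to 440 (control guide, 0 h), so that the unstimulated Foxp3-guide cells stood highest. Nme1 and Nme2 weigh heavily in this sum. Their means were 163 and 280 CPM (control guide, 3 h) against 28.3 and 101 CPM (control guide, 0 h). With stimulation Rrm1, Rrm2, Tyms, Tk1 and Dck fell under both guides. For the other 3 groups of steps all 3 h libraries stood above all 0 h libraries. The purine sum at 3 h was 1784 and 1829 CPM (Foxp3 guide) against 1754 and 1729 (control guide). In TPM its order turned, at 1043 and 1033 against 1170 and 1137. Pyrimidine sums overlapped between the guides at 3 h in TPM, at 203 and 191 against 210 and 198.

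**Figure D1:**
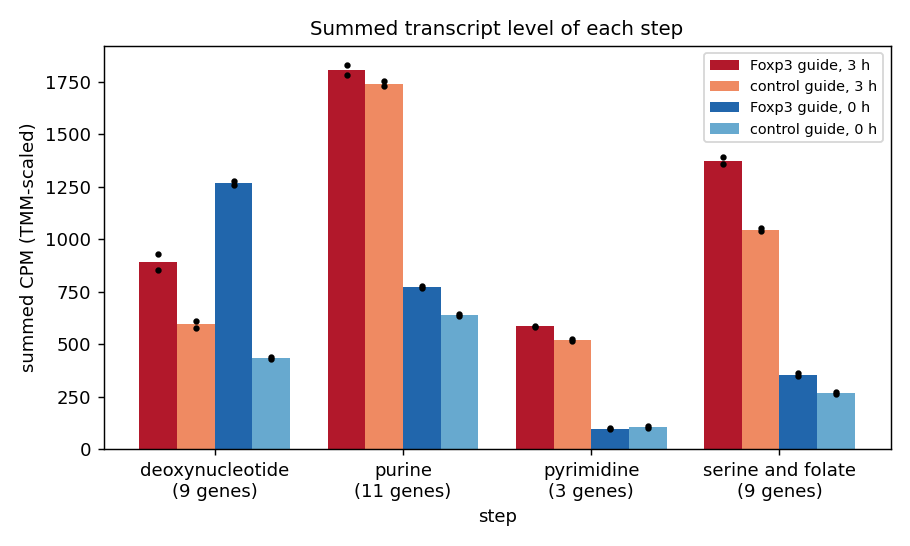
Summed transcript level (CPM, TMM-scaled) of the genes of each group of steps; bars are means of 2 libraries and points are the libraries, with a bar for each guide and time. The deoxynucleotide sum, which holds Nme1 and Nme2 that rose with stimulation, peaked with the Foxp3 guide at 0 h (1258 to 1275 CPM). Purine, pyrimidine and serine and folate sums were highest at 3 h.

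**Figure D2:**
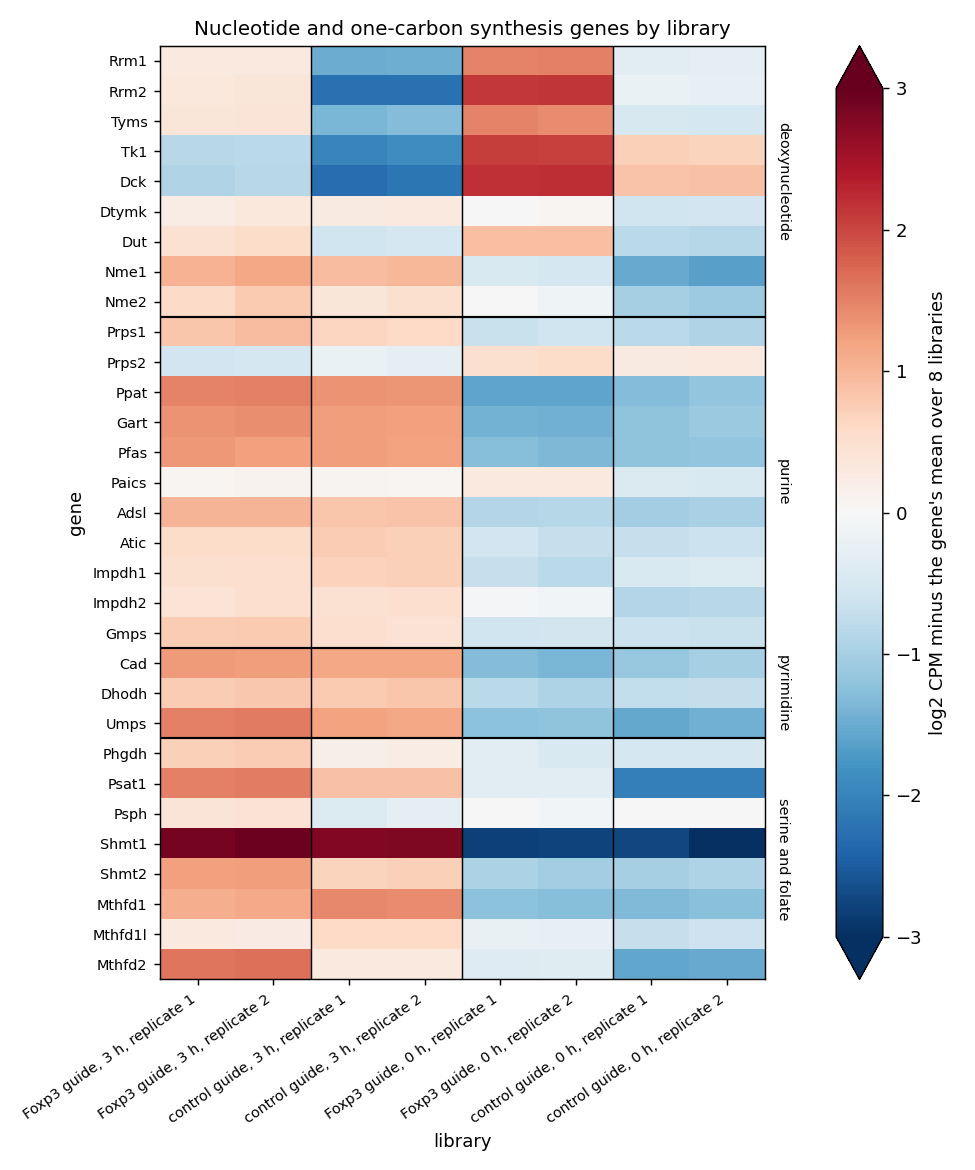
Level of 31 genes in each of the 8 libraries as log2 CPM minus the mean of that gene over the 8 libraries, in rows grouped by step; the colour scale is clipped at 3 in either direction, and Aldh1l2, with few counts, is left out. The 2 libraries of a group look alike, Shmt1 spans the widest range, and Rrm1, Rrm2, Tyms, Tk1 and Dck run against most other rows.

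The first comparison asked what the Foxp3 guide changed in unstimulated cells. At 0 h, 19 of the 32 genes were higher and 5 lower with the Foxp3 guide at an adjusted p below 0.05, where 34.2% of all tested genes were higher and 29.1% lower. The guide groups did not overlap for 26 of the 32, a share near the 80.8% of all tested genes. The median log2 change was 0.24 over the 32 genes and 0.02 over all tested genes. After 3 h of TCR stimulation, 22 were higher and 5 lower, against 30.7% and 30.8% of all tested genes, and 27 did not overlap, where 79.0% of all tested genes did not. The median was then 0.21, against -0.01 over all tested genes. Because so many genes passed this test, the sizes of the changes carry more than their counts. Scale matters for the small ones: on the log2(TPM+1) scale the median of the 32 was -0.004 at 0 h and 0.03 at 3 h, against -0.15 and -0.12 over all tested genes, and a number of small guide effects changed sign.

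All 9 deoxynucleotide genes were higher with the Foxp3 guide at 0 h, with a median log2 change of 1.37, and 8 were higher at 3 h, with a median of 1.11 (edgeR, adjusted p below 0.05). Rrm2 (ENSMUSG00000020649.11; GRCm38 chromosome 12, 24708241 to 24714146, plus strand) encodes the small subunit of ribonucleotide reductase, whose level follows S phase. It had 81.9 and 84.5 CPM with the Foxp3 guide at 3 h, against 14.0 and 14.0 with the control guide, and 289 and 291 CPM with the Foxp3 guide at 0 h, against 57.6 and 55.4 with the control guide. The Foxp3-guide libraries were above the control-guide libraries at each time by several-fold, far beyond the gap between replicates. Its guide effect was 2.36 ± 0.0387 (log2 ± SE) at 0 h and 2.57 ± 0.0471 at 3 h, or 5.13-fold and 5.96-fold. Rrm1, the large subunit (ENSMUSG00000030978.10; chromosome 7, 102441695 to 102469771, plus strand), had 118 and 118 CPM against 34.3 and 34.8 at 3 h, and 270 and 273 CPM against 77.6 and 78.7 at 0 h. Its guide effects, 1.80 ± 0.0363 at 0 h and 1.77 ± 0.0398 at 3 h, were smaller than those of Rrm2.

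Thymidylate and salvage enzymes behaved alike in direction. Tyms, thymidylate synthase, had 33.3 and 33.8 CPM (Foxp3 guide) against 9.99 and 10.5 (control guide) at 3 h, and 72.1 and 69.1 CPM against 18.3 and 17.9 at 0 h. Tk1, the cytosolic thymidine kinase of S phase, had 11.4 and 11.7 CPM against 5.17 and 5.55 at 3 h, and 85.6 and 83.7 CPM against 33.5 and 32.1 at 0 h. Dck, deoxycytidine kinase (ENSMUSG00000029366.10; chromosome 5, 88764996 to 88783281, plus strand), had 20.2 and 21.0 CPM against 7.73 and 8.36 at 3 h, and 171 and 174 CPM against 68.0 and 68.9 at 0 h. In all 3 genes both Foxp3-guide libraries were above both control-guide libraries at each time. The guide effects at 0 h and 3 h were 1.96 ± 0.0502 and 1.71 ± 0.0576 for Tyms. Those of Tk1 were 1.37 ± 0.0468 and 1.11 ± 0.0732, and those of Dck 1.33 ± 0.0405 and 1.36 ± 0.0607. Dut, the enzyme that clears dUTP and so supplies dUMP for thymidylate, had 54.0 and 57.1 CPM against 25.8 and 27.1 at 3 h, and 73.7 and 72.8 CPM against 22.2 and 21.8 at 0 h. Its guide effect was 1.74 ± 0.0493 at 0 h and 1.08 ± 0.0492 at 3 h.

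In CPM, the kinases that phosphorylate mono- and diphosphates differed with the guide mainly at 0 h. Dtymk, thymidylate kinase, had 50.3 and 54.4 CPM (Foxp3 guide) against 52.2 and 53.0 (control guide) at 3 h, where the groups overlapped, and 43.9 and 45.5 CPM against 28.8 and 29.3 at 0 h. Its guide effect was 0.62 ± 0.0499 at 0 h and did not pass at 3 h (adjusted p = 0.959 in edgeR). In TPM, Dtymk was lower with the Foxp3 guide at 3 h, at 78.1 and 81.4 against 93.6 and 92.4, without overlap. Nme1, a nucleoside diphosphate kinase, had 173 and 186 CPM against 158 and 167 at 3 h, and 60.5 and 58.1 CPM against 29.6 and 27.1 at 0 h. Nme2, its close relative and neighbour, had 309 and 362 CPM against 270 and 291 at 3 h, and 209 and 191 CPM against 104 and 97.8 at 0 h. Nme1 was higher by 1.07 ± 0.0518 at 0 h and 0.14 ± 0.0439 at 3 h, where the sign turned on the TPM scale, and Nme2 by 0.98 ± 0.0896 and 0.26 ± 0.086. The 3 h calls rested on few libraries: without control-guide 3 h replicate 1 the adjusted p was 0.0783 for Nme1, and without any 1 of the 4 control-guide libraries it was 0.0603 to 0.246 for Nme2.

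Counts of Nme1 and Nme2 carry a further limit. A readthrough gene model, Gm20390, shares 47.0% of the 50-base words of Nme2 and 11.1% of those of Nme1, and reads in those words cannot be assigned to 1 of the 3 with certainty. Gm20390 itself had 144 and 144 CPM with the Foxp3 guide at 3 h, against 117 and 130 with the control guide, and 63.5 and 61.2 CPM with the Foxp3 guide at 0 h, against 20.1 and 28.7 with the control guide. With the 3 added together the guide effect was 1.06 at 0 h and 0.22 at 3 h, in the same direction as for the separate genes.

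Cell cycle genes moved with the deoxynucleotide genes. All 12 replication genes on a list that holds the Mcm helicase subunits and Pcna were higher with the Foxp3 guide at 0 h (median 1.27) and at 3 h (median 1.24). So were all 10 genes of G2 and mitosis, with medians of 2.43 and 2.54. The summed level of the mitotic list was 787 to 816 CPM (Foxp3 guide, 3 h), 146 to 153 (control guide, 3 h), 3311 to 3331 (Foxp3 guide, 0 h) and 698 to 739 (control guide, 0 h). Its order over the 4 groups was that of Rrm2, Rrm1 and Tyms, while Tk1 and Dck were higher with the control guide at 0 h than with the Foxp3 guide at 3 h. The part of cycling cells in the deoxynucleotide result was not tested.

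**Figure D3:**
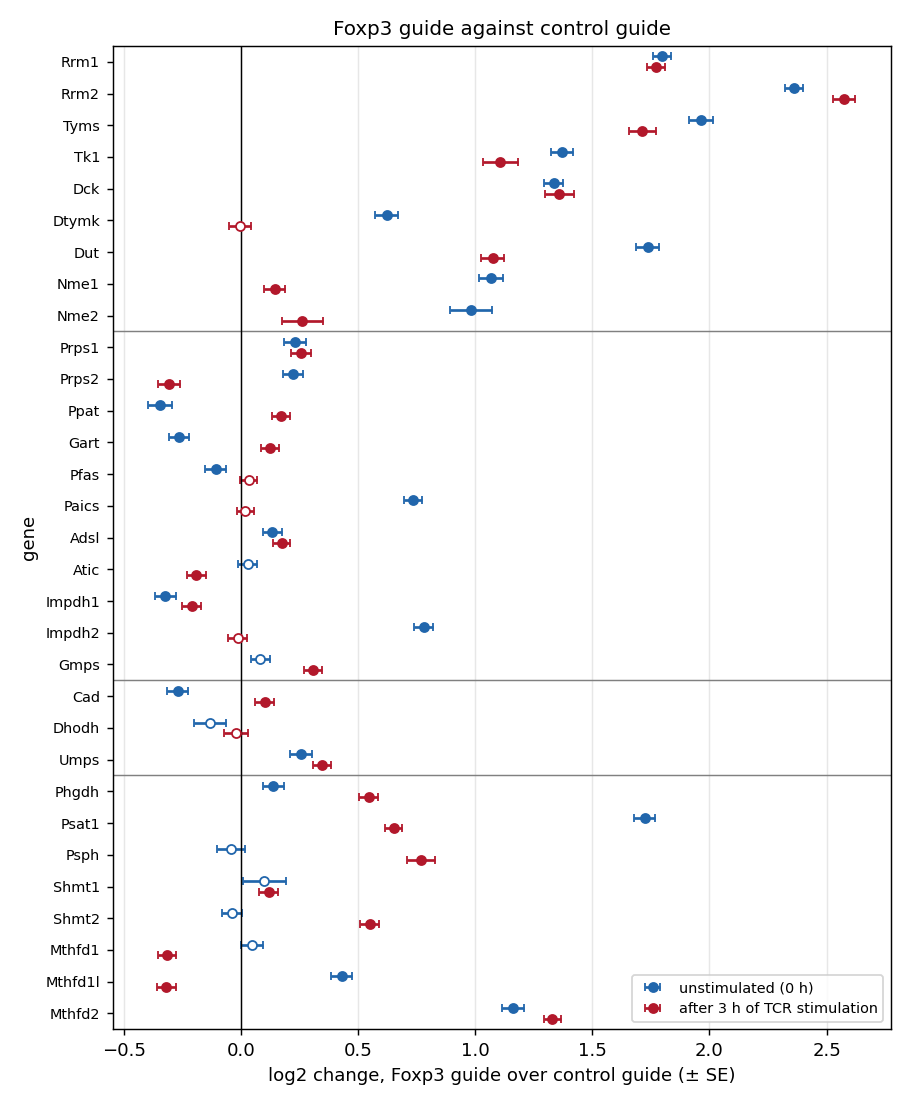
Guide effect on 31 genes as log2 change, Foxp3 guide over control guide, with its SE, at 0 h (blue) and after 3 h of TCR stimulation (red); filled points passed an adjusted p of 0.05, open points did not, and Aldh1l2 is left out. Deoxynucleotide genes reach 2.57 (Rrm2, 3 h), purine and pyrimidine genes other than Paics and Impdh2 lie between -0.35 and 0.35 at both times, where several turn sign on the TPM scale, and Psat1 (0 h) and Mthfd2 (both times) stand apart among serine and folate genes.

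Purine genes had no such common direction with the guide. At 0 h, 5 of 11 were higher and 4 lower, and at 3 h 5 were higher and 3 lower, with medians of 0.08 and 0.03. The 2 with the largest changes were Paics, which carries out the steps that carboxylate the ring precursor and add aspartate, and Impdh2, an enzyme that commits IMP to guanine nucleotides. Paics had 128 and 133 CPM with the Foxp3 guide at 3 h, against 130 and 128 with the control guide, and 150 and 149 CPM with the Foxp3 guide at 0 h, against 91.0 and 89.3 with the control guide. Impdh2 had 247 and 267 CPM against 255 and 264 at 3 h, and 179 and 177 CPM against 102 and 105 at 0 h. Both were thus higher with the Foxp3 guide at 0 h, by 0.73 ± 0.0372 and 0.78 ± 0.0419, while the guide groups overlapped in CPM at 3 h. In TPM both were lower with the Foxp3 guide at 3 h, without overlap. Paics had 93.5 and 92.6 TPM against 109 and 103, and Impdh2 219 and 225 TPM against 259 and 267. Impdh2 shares 39.3% of its 50-base words with the pseudogene Impdh2-ps, and adding the counts of that copy changed none of its calls.

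Ppat, which catalyses the committed step of purine synthesis, lies head to head with Paics on chromosome 5 and moved differently. On GRCm38, Ppat spans 76913249 to 76951578 on the minus strand and Paics 76951307 to 76967509 on the plus strand, so that their 5′ ends overlap and their annotated starts lie 271 bp apart. Ppat had 145 and 146 CPM with the Foxp3 guide at 3 h, against 130 and 128 with the control guide, and 17.2 and 17.2 CPM with the Foxp3 guide at 0 h, against 21.1 and 22.6 with the control guide. It was lower at 0 h by a log2 change of -0.35 ± 0.0507, where Paics was higher. At 3 h it was higher by 0.17 ± 0.0383, a direction that turned on the TPM scale. The labels call the libraries and the count table stranded, which bears on reads from the overlap.

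Other members of the ring-building part of the pathway changed little with the guide. Gart, a protein with 3 enzyme activities in this pathway, had 293 and 303 CPM (Foxp3 guide) against 277 and 270 (control guide) at 3 h, and 43.1 and 42.7 CPM against 49.96 and 53.1 at 0 h. It was lower at 0 h by -0.26 ± 0.0433, and higher at 3 h by 0.12 ± 0.0377, where the sign turned on the TPM scale. Pfas, which adds nitrogen from glutamine, was lower at 0 h by -0.11 ± 0.0437, but that call was lost without a filter on low counts (adjusted p = 0.249) and without any 1 of the 4 libraries at 0 h (adjusted p up to 0.325) or without Foxp3-guide 3 h replicate 1 (adjusted p = 0.0504). Adsl, adenylosuccinate lyase, was higher by 0.13 ± 0.0412 at 0 h and 0.17 ± 0.0364 at 3 h, and both directions turned on the TPM scale; the call at 0 h was also lost with median-ratio scaling (adjusted p = 0.112) and without control-guide 0 h replicate 1 (adjusted p = 0.0857). Atic, which closes the ring to IMP, did not pass at 0 h (adjusted p = 0.581 in edgeR) and was lower by -0.19 ± 0.0388 at 3 h. Its libraries had 157 and 159 CPM against 184 and 177 at 3 h, and 72.0 and 67.3 CPM against 67.4 and 69.3 at 0 h. Impdh1, the other IMP dehydrogenase, was lower at both times, by -0.32 ± 0.045 at 0 h and -0.21 ± 0.0414 at 3 h, and Gmps, GMP synthetase, was higher at 3 h by 0.31 ± 0.0387, with an adjusted p of 0.205 on the log2(TPM+1) scale. Gmps did not pass at 0 h, but it was higher there without a filter on low counts (adjusted p = 0.0293) or without control-guide 3 h replicate 1 (adjusted p = 0.0434), and lower on the log2(TPM+1) scale (adjusted p = 0.033).

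Prps1 and Prps2 make phosphoribosyl pyrophosphate, the activated ribose of both pathways. Prps1 had 111 and 118 CPM with the Foxp3 guide at 3 h, against 97.7 and 94.4 with the control guide, and 39.4 and 41.0 CPM with the Foxp3 guide at 0 h, against 35.4 and 33.2 with the control guide. Prps2 had 39.5 and 41.0 CPM against 51.5 and 48.4 at 3 h, and 82.0 and 85.7 CPM against 71.5 and 72.3 at 0 h. The guide effect on Prps1 was 0.23 ± 0.0486 at 0 h and 0.26 ± 0.0431 at 3 h, with an adjusted p of 0.162 at 3 h on the log2(TPM+1) scale. That on Prps2 was 0.22 ± 0.0434 at 0 h, a direction that turned on the TPM scale as it did for Prps1, and -0.31 ± 0.0467 at 3 h. When the counts of Prps1l3, which shares 9.9% of the 50-base words of Prps1, were added to Prps1, its change at 0 h was 0.02 (adjusted p = 0.642 in edgeR).

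The 3 pyrimidine enzymes changed little with the guide. Cad, the protein that starts the pathway, had 361 and 356 CPM with the Foxp3 guide at 3 h, against 337 and 333 with the control guide, and 60.4 and 57.8 CPM with the Foxp3 guide at 0 h, against 67.8 and 74.6 with the control guide. It was lower at 0 h by -0.27 ± 0.0451. Its call at 3 h, 0.10 ± 0.0409, turned sign on the TPM scale and was lost without Foxp3-guide 3 h replicate 1 (adjusted p = 0.135) or control-guide 3 h replicate 2 (adjusted p = 0.108). Umps, which forms UMP (ENSMUSG00000022814.6; chromosome 16, 33954782 to 33967038, minus strand), had 194 and 202 CPM against 157 and 154 at 3 h, and 29.1 and 29.5 CPM against 23.6 and 25.4 at 0 h. It was higher by 0.26 ± 0.048 at 0 h, where the sign turned on the TPM scale, and by 0.35 ± 0.038 at 3 h, with an adjusted p of 0.0606 on the log2(TPM+1) scale. Dhodh, the mitochondrial step between them, had 28.7 and 29.4 CPM against 29.2 and 29.9 at 3 h, and 9.60 and 8.85 CPM against 10.03 and 10.2 at 0 h, and passed at neither time in edgeR (adjusted p = 0.727 at 3 h and 0.0875 at 0 h). It did pass as lower at 0 h with median-ratio scaling (adjusted p = 0.0157), upper-quartile scaling (0.00736) and a 1 CPM minimum (0.0488), and on the log2(TPM+1) scale at both times (0.00336 at 3 h and 0.000273 at 0 h).

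Among serine and folate genes, Psat1 and Mthfd2 had the largest guide effects outside the deoxynucleotide group at 0 h. At 3 h Mthfd2 did, apart from Aldh1l2 on few counts, and Psph came before Psat1. Of the 9 genes, 4 were higher and 0 lower at 0 h, and 7 were higher and 2 lower at 3 h, with medians of 0.14 and 0.55. Psat1, the aminotransferase of serine synthesis (ENSMUSG00000024640.9; chromosome 19, 15904678 to 15947337, minus strand), had 216 and 220 CPM with the Foxp3 guide at 3 h, against 139 and 138 with the control guide, and 59.4 and 60.4 CPM with the Foxp3 guide at 0 h, against 18.2 and 18.1 with the control guide. Mthfd2, the mitochondrial enzyme that oxidises methylene-tetrahydrofolate (ENSMUSG00000005667.8; chromosome 6, 83305691 to 83325908, minus strand), had 181 and 187 CPM against 73.0 and 73.3 at 3 h, and 45.6 and 46.0 CPM against 20.1 and 20.8 at 0 h. Both were above the control guide at each time, with no overlap. The guide effect on Psat1 was 1.72 ± 0.0442 at 0 h and 0.65 ± 0.0354 at 3 h, and that on Mthfd2 was 1.16 ± 0.0455 and 1.33 ± 0.0384.

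The other enzymes of serine synthesis differed with the guide chiefly at 3 h. Phgdh, which commits the glycolytic intermediate to serine, had 176 and 183 CPM (Foxp3 guide) against 121 and 125 (control guide) at 3 h, and 86.6 and 78.4 CPM against 74.7 and 75.3 at 0 h. Its guide effect was 0.54 ± 0.0421 at 3 h and 0.14 ± 0.044 at 0 h, where the sign turned on the TPM scale and the call was lost with median-ratio scaling (adjusted p = 0.12) and without Foxp3-guide 0 h replicate 1 (adjusted p = 0.211). Psph, the phosphatase that releases serine, had 25.1 and 26.3 CPM against 14.5 and 15.8 at 3 h, and 19.3 and 18.2 CPM against 19.2 and 19.4 at 0 h. The groups of Psph overlapped in CPM at 0 h and parted at 3 h, by 0.77 ± 0.0591. On the log2(TPM+1) scale Psph was lower at 0 h (-0.31, adjusted p = 0.0102). Phgdh shares 47.8% of its 50-base words with other gene models, most with Gm7901, and adding the counts of that copy changed none of its calls.

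Folate enzymes differed among themselves. Shmt2, the mitochondrial serine hydroxymethyltransferase that moves the one-carbon unit from serine to folate, had 318 and 322 CPM (Foxp3 guide) against 215 and 223 (control guide) at 3 h, and 69.7 and 65.8 CPM against 68.0 and 71.0 at 0 h. It was higher at 3 h by 0.55 ± 0.0387, and its groups overlapped in CPM at 0 h, where it was lower with upper-quartile scaling (-0.12, adjusted p = 0.015) and on the log2(TPM+1) scale (-0.41, adjusted p = 3.08e-05). Shmt1, the cytosolic form (ENSMUSG00000020534.14; chromosome 11, 60788104 to 60811718, minus strand), had 239 and 250 CPM against 224 and 227 at 3 h, and 4.70 and 4.76 CPM against 4.92 and 3.96 at 0 h. Its guide effect at 3 h was 0.12 ± 0.0402 and turned sign on the TPM scale. Mthfd1, the cytosolic enzyme with 3 activities on folate, had 131 and 136 CPM against 167 and 165 at 3 h, and 26.4 and 25.7 CPM against 24.6 and 25.8 at 0 h. Mthfd1l, the mitochondrial formate-producing relative, had 70.1 and 67.9 CPM against 86.2 and 85.9 at 3 h, and 49.0 and 48.3 CPM against 35.3 and 37.0 at 0 h. Both were lower with the Foxp3 guide at 3 h, each by a log2 change of -0.32, and Mthfd1l was higher at 0 h by 0.43 ± 0.0449. Aldh1l2, the mitochondrial enzyme that returns formyl-tetrahydrofolate to tetrahydrofolate, was barely detected. It had 66 counts in the 2 Foxp3-guide libraries at 3 h, against 1 with the control guide, and 11 counts with the Foxp3 guide at 0 h, against 5 with the control guide. The depth-scaled ratio between the guides was 44.0 at 3 h, with a 95% counting interval of 7.62 to 1760, and 1.47 at 0 h, with an interval of 0.472 to 5.40.

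**Figure D4:**
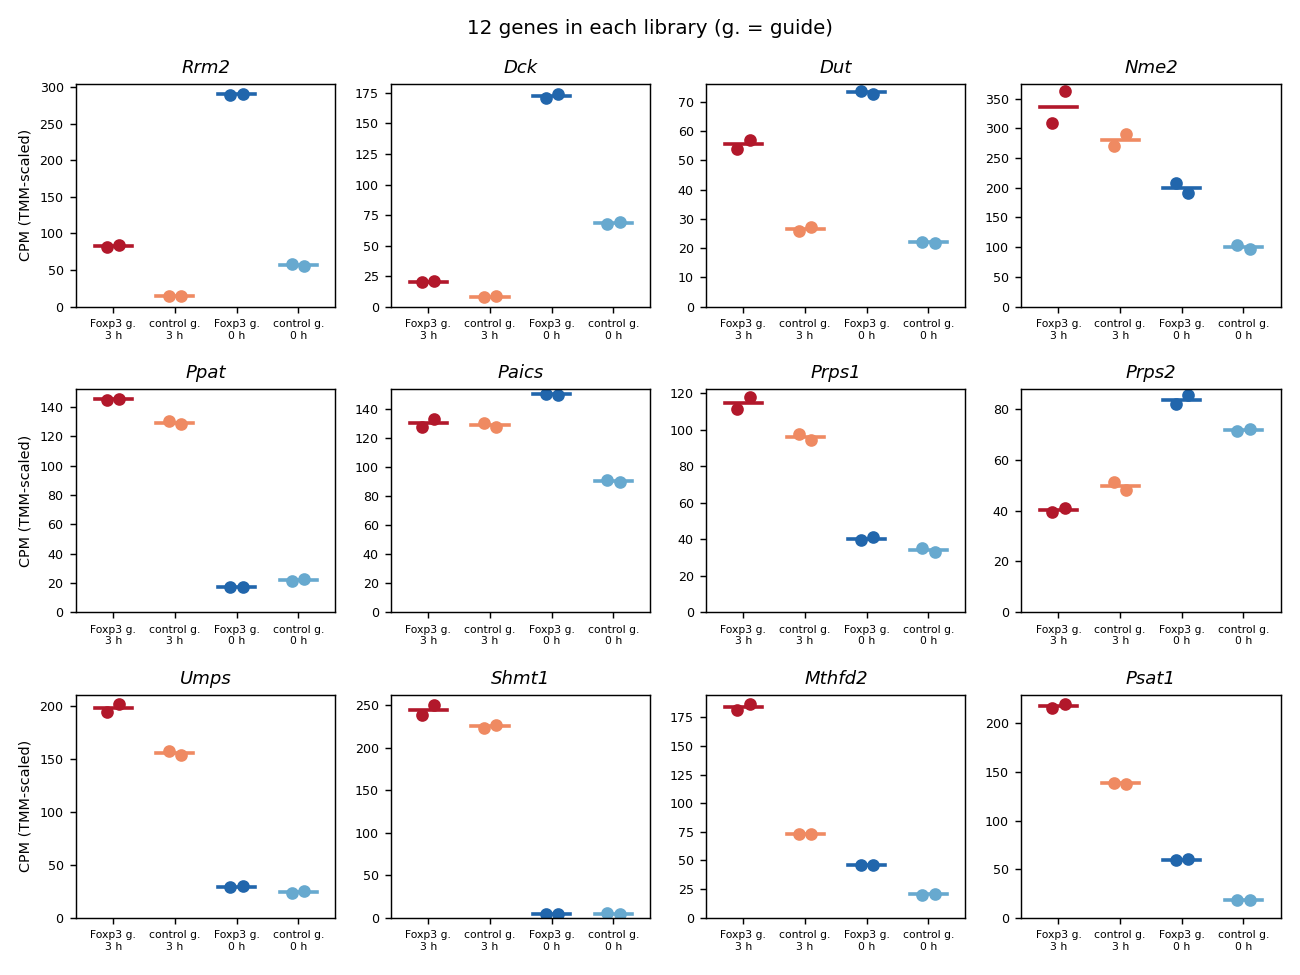
CPM of 12 genes in each library (points) with the mean of 2 libraries (line), for the Foxp3 guide (g.) beside the control guide at 3 h and then at 0 h; the genes were chosen after their values were seen. Rrm2 and Dck are highest with the Foxp3 guide at 0 h, Ppat, Umps and Shmt1 are high at 3 h with both guides, Paics parts from its neighbour Ppat at 0 h, and Prps1 and Prps2 run in opposite directions with time.

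The next comparisons asked what 3 h of TCR stimulation changed with each guide; mock treatment served as 0 h, so stimulation and 3 h of culture cannot be told apart. With the Foxp3 guide 24 of the 32 genes were higher at 3 h and 8 lower, where 40.8% of all tested genes were higher and 44.5% lower. With the control guide 24 were higher and 7 lower, where 40.9% of all tested genes were higher and 40.9% lower. The 3 h and 0 h libraries did not overlap for 32 and 31 genes, where 92.3% and 89.7% of all tested genes did not. The median log2 change was 1.3 under the Foxp3 guide and 1.36 under the control guide, against -0.07 and -0.01 over all tested genes. On the log2(TPM+1) scale the medians of the 32 were 0.94 and 1.02 and those of all genes -0.18 and -0.20, and with upper-quartile scaling those of all genes were -0.24 and -0.25, shifts far smaller than most changes of the 32 genes. The 2 TCR effects share no library, and 22 genes were higher and 6 lower under both guides.

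Shmt1 had the largest change of the 32, a level 51.6-fold higher at 3 h than at 0 h with the Foxp3 guide (log2 5.69 ± 0.0574) and 50.9-fold with the control guide (5.67 ± 0.0619). Its mean level per length was 169 TPM at 3 h against 3.70 TPM at 0 h with the Foxp3 guide, and 173 TPM against 3.72 TPM with the control guide. Shmt2 stood far above Shmt1 at 0 h on this scale, at 56.4 TPM (Foxp3 guide) and 75.2 TPM (control guide), and at 3 h it was at 241 TPM and 197 TPM. At 3 h the cytosolic and mitochondrial transcripts were therefore much closer in level than at 0 h. Shmt2 was higher at 3 h by 2.24 ± 0.0408 under the Foxp3 guide and 1.65 ± 0.0415 under the control guide.

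The remaining serine and folate genes were mostly higher at 3 h. Mthfd1 was higher by 2.36 ± 0.0418 under the Foxp3 guide and 2.72 ± 0.044 under the control guide, and Mthfd2 by 2.01 ± 0.0388 and 1.84 ± 0.0454. Mthfd1l changed less, by 0.50 ± 0.0421 and 1.25 ± 0.0448. Psat1 was higher by 1.86 ± 0.0366 and 2.93 ± 0.0435, and Phgdh by 1.12 ± 0.0422 and 0.72 ± 0.0442. Psph was the exception, higher at 3 h with the Foxp3 guide by 0.46 ± 0.0541 and lower with the control guide by a change of -0.35 ± 0.0627. Aldh1l2 gave a ratio of 3 h to 0 h of 6.41 with the Foxp3 guide (95% counting interval 3.36 to 13.5) and 0.215 with the control guide (0.00454 to 1.92), on the counts given above.

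Purine and pyrimidine genes were the other main group of rises with TCR stimulation. Of 11 purine genes, 9 were higher and 2 lower with the Foxp3 guide, and 10 higher and 1 lower with the control guide, with medians of 1.35 and 1.40. Ppat led them, 8.45-fold higher with the Foxp3 guide (3.08 ± 0.0442) and 5.91-fold with the control guide (2.56 ± 0.0453). Gart followed at 2.80 ± 0.0416 and 2.41 ± 0.042 and Pfas at 2.58 ± 0.0405 and 2.44 ± 0.0417. Pfas had 225 and 216 CPM with the Foxp3 guide at 3 h, 219 and 212 with the control guide at 3 h, 37.7 and 36.1 with the Foxp3 guide at 0 h and 39.5 and 40.1 with the control guide at 0 h. The 3 h libraries of these 3 genes stood several-fold above the 0 h libraries. Adsl, Gmps, Impdh1 and Atic rose by between 1.13 and 1.89 with either guide. Adsl had 186 and 185 CPM (Foxp3 guide) and 164 and 165 CPM (control guide) at 3 h, against 49.6 and 50.7 CPM and 44.4 and 46.9 CPM at 0 h. Gmps had 151 and 156 CPM and 128 and 120 CPM at 3 h, against 59.3 and 61.01 CPM and 57.2 and 56.4 CPM at 0 h, and Impdh1 had 102 and 105 CPM and 118 and 121 CPM at 3 h, against 45.5 and 41.7 CPM and 54.0 and 55.1 CPM at 0 h. No 3 h library of these genes overlapped a 0 h library under the same guide.

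Isoenzymes and neighbours in the purine pathway moved unevenly. Impdh2 rose by 0.53 ± 0.0404 under the Foxp3 guide and 1.32 ± 0.0422 under the control guide. Paics fell with the Foxp3 guide, by a change of -0.20 ± 0.0361, and rose with the control guide, by 0.51 ± 0.0379, while its neighbour Ppat rose by more than 5-fold with both. Prps1 and Prps2, which catalyse the same reaction, moved in opposite directions. Prps1 rose by 1.51 ± 0.0445 and 1.49 ± 0.0476, and Prps2 fell, by changes of -1.06 ± 0.0444 under the Foxp3 guide and -0.53 ± 0.0459 under the control guide. Per length, Prps1 was at 101 TPM and Prps2 at 16.2 TPM with the Foxp3 guide at 3 h, and at 94.6 and 21.7 TPM with the control guide, against 42.8 and 38.2 TPM with the Foxp3 guide at 0 h and 43.3 and 39.2 TPM with the control guide. The isoenzymes were thus close in level at 0 h and several-fold apart at 3 h.

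All 3 pyrimidine genes rose with both guides, with medians of 2.60 and 2.23. Cad rose by 2.60 ± 0.0443 under the Foxp3 guide and 2.23 ± 0.0445 under the control guide, Umps by 2.75 ± 0.0421 and 2.66 ± 0.045 and Dhodh by 1.66 ± 0.0564 and 1.55 ± 0.061. Per length, Dhodh was the lowest of the 3 at 3 h, at 25.8 TPM (Foxp3 guide) and 32.3 TPM (control guide).

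Deoxynucleotide genes ran the other way in part. With the Foxp3 guide 3 were higher and 6 lower at 3 h, and with the control guide 4 were higher and 5 lower, with medians of -1.07 and -0.82. Over all tested genes 40.8% were higher and 44.5% lower with the Foxp3 guide, and 40.9% and 40.9% with the control guide. Dck fell, by log2 changes of -3.07 ± 0.0447 under the Foxp3 guide and -3.09 ± 0.0555 under the control guide, to 0.119 and 0.117 of its level at 0 h. Tk1 changed by -2.87 ± 0.0514 and -2.61 ± 0.0662, Rrm2 by -1.80 ± 0.0369 and -2.02 ± 0.0488, Rrm1 by -1.204 ± 0.0349 and -1.18 ± 0.0408 and Tyms by -1.07 ± 0.0456 and -0.82 ± 0.063, all falls. Nme1 and Nme2 instead rose, Nme1 by 1.60 ± 0.0456 and 2.52 ± 0.051 and Nme2 by 0.75 ± 0.0861 and 1.47 ± 0.0904. Nme2 had the highest level per length of the 32 genes in each of the 4 groups, from 249 TPM (control guide, 0 h) to 546 TPM (Foxp3 guide, 3 h). Dtymk rose by 0.86 ± 0.0508 with the control guide, and by 0.23 ± 0.0464 with the Foxp3 guide, a direction that turned on the TPM scale. Dut fell with the Foxp3 guide, by a change of -0.40 ± 0.0441, and rose with the control guide by 0.26 ± 0.0543, a direction that also turned on the TPM scale. Cell cycle genes moved with the falling ones: all 10 genes of G2 and mitosis were lower at 3 h with both guides (medians -2.14 and -2.38), and of 12 replication genes 11 were lower and 1 higher with the Foxp3 guide and 8 lower and 1 higher with the control guide. Their part in the fall of the deoxynucleotide genes was not tested.

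**Figure D5:**
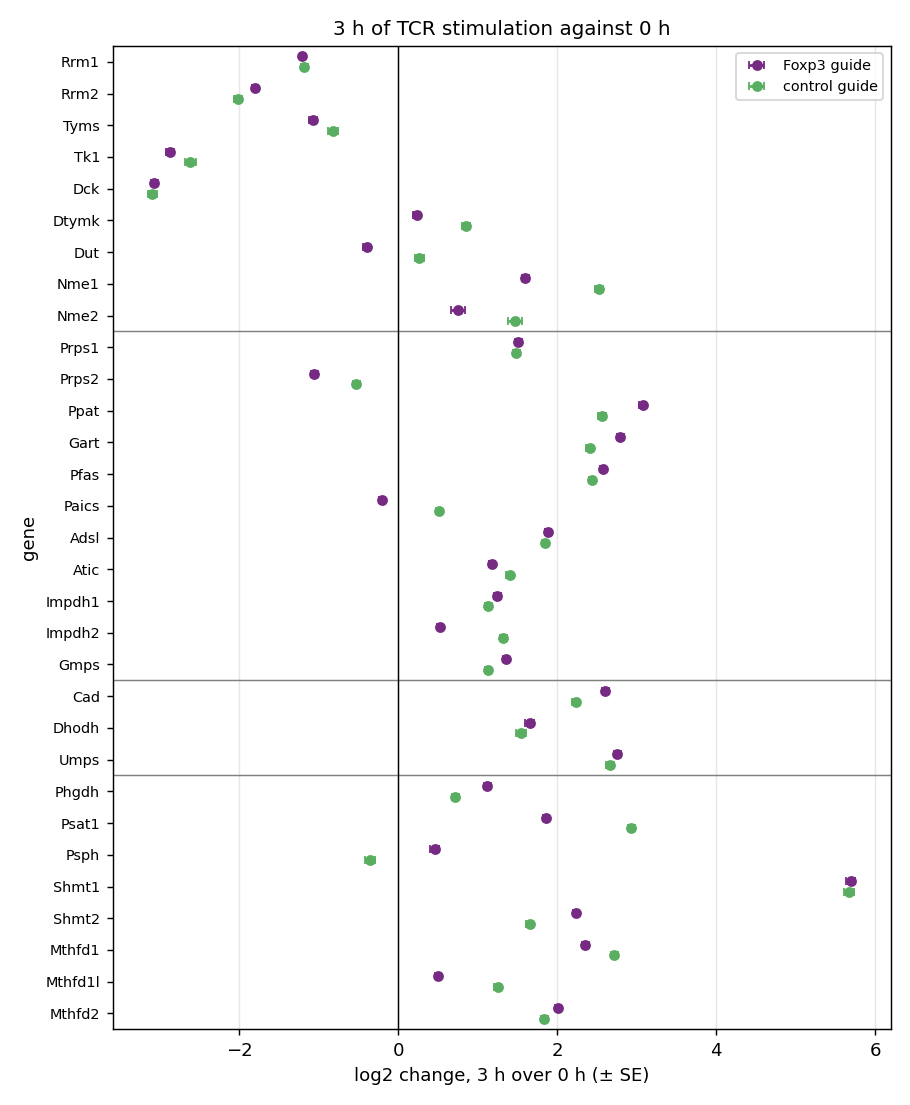
Change of 31 genes with TCR stimulation as log2 change, 3 h over 0 h, with its SE, with the Foxp3 guide (purple) and the control guide (green); all points passed an adjusted p of 0.05, and Aldh1l2 is left out. Shmt1 lies near 5.7 with both guides, Dck and Tk1 near -3, and Paics, Dut and Psph lie on opposite sides of 0 with the 2 guides, where Dut (control guide) turns sign on the TPM scale, as does Dtymk (Foxp3 guide).

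The last comparison asked whether the TCR effect differed between the guides, as a test of the difference itself. Of the 32 genes 11 had a higher TCR effect with the Foxp3 guide and 13 a lower one, where 17.8% and 27.0% of all tested genes did. The median difference was 0.03, against -0.09 over all tested genes, and 0.04 against 0.01 on the log2(TPM+1) scale. The largest of the 13 were Psat1 at -1.07 ± 0.0569, Nme1 at -0.92 ± 0.0679, Impdh2 at -0.79 ± 0.0581, Mthfd1l at -0.75 ± 0.0614, Nme2 at -0.72 ± 0.124 and Paics at -0.72 ± 0.0523. Dut at -0.66 ± 0.07, Dtymk at -0.63 ± 0.0688 and Prps2 at -0.53 ± 0.0638 followed. For Psat1, Nme1, Nme2, Impdh2, Paics, Dut, Dtymk and Mthfd1l the level at 0 h was already higher with the Foxp3 guide. That the guides were then closer, or in the other order, at 3 h follows from how the difference is formed. Among the 11, Psph at 0.81 ± 0.0828, Shmt2 at 0.59 ± 0.0571, Ppat at 0.52 ± 0.0635, Phgdh at 0.41 ± 0.0609, Gart at 0.39 ± 0.0574 and Cad at 0.37 ± 0.0608 had the largest differences, beside Aldh1l2, which passed on few counts and not without control-guide 0 h replicate 1 (adjusted p = 0.255). No difference passed in edgeR with TMM scaling for Shmt1 (0.02 ± 0.101), Dck (0.02 ± 0.0739), Rrm1 (-0.03 ± 0.0537), Prps1 (0.02 ± 0.0649), Adsl (0.04 ± 0.055), Umps (0.09 ± 0.0613), Dhodh (0.11 ± 0.0844) or Impdh1 (0.11 ± 0.0611). Of these genes, 1 passed with median-ratio scaling and 2 with upper-quartile scaling. Small differences were fragile. On the TPM scale with all genes, the adjusted p was 0.0592 for Prps2, 0.0616 for Gmps and 0.0669 for Rrm2. Tyms (-0.25 ± 0.0783) was lost with median-ratio scaling (adjusted p = 0.0539) and without replicate 2 of either 3 h group (up to 0.0848). Tk1 (-0.26 ± 0.0892) was lost with median-ratio scaling (0.0748) and without any 1 of 4 libraries: both of the Foxp3 guide at 3 h and replicate 2 of the control guide at 3 h and at 0 h (up to 0.119). Atic (-0.22 ± 0.0569) was lost on the TPM scale (up to 0.255) and without Foxp3-guide 3 h replicate 2 (0.0603). Pfas (0.14 ± 0.0571) was lost without any 1 of 6 libraries, all but Foxp3-guide 3 h replicate 2 and control-guide 3 h replicate 1 (up to 0.257). Mthfd2 (0.17 ± 0.0598) was lost without any of 3 libraries at 0 h, all but control-guide replicate 1 (up to 0.14). With DESeq2, 4 of the member calls in the difference were lost, and 2 of those in the guide effect at 0 h.

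Promoters were searched for short words of 3 kinds of factor linked in other work to nucleotide and amino acid genes, on both strands of 300 bases around each start (250 before, 50 after; RefSeq, build GRCm38.p6), which 29 of the 32 genes had. The E-box CACGTG, a word bound by Myc and related factors, was in 6 of 29 (20.7%), against 2187 of 27025 genes in the table (8.10%). These were Atic, Dtymk, Impdh2, Nme1, Paics and Tyms. Of tested genes with a promoter in the table, 1245 held an E-box and 9636 did not, a larger share than over all 27025. Any of the E2F words TTTCCCGC, TTTGGCGC, TTTCGCGC and TTTGCCGC was in 2 of 29 (6.90%, Ppat and Prps2), against 704 genes (2.60%), and any of the ATF4 words TGATGCAA, TGATGAAA, TGATGTAA and TGATGGAA in 1 (3.40%, Prps1), against 1219 genes (4.50%). The stretches that hold the E-box, and those of Ppat for comparison with its neighbour Paics, are shown because all 6 genes with an E-box were among the 13 with a lower TCR effect under the Foxp3 guide. Capitals mark the E-box, or in Ppat the E2F word read on the other strand. The stretches of Impdh2 and Paics, both of Ppat and the upstream one of Nme1 lie wholly in an annotated UTR of either strand (GENCODE M21), as do 6 bases of that of Atic.
Atic, chr1:71557126-71557155, plus strand: gaggaggggcgggacctcggggtCACGTGg
Dtymk, chr1:93802065-93802094, minus strand: gtctcgaacttcCACGTGaccagagcctgc
Impdh2, chr9:108560314-108560343, plus strand: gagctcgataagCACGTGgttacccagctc
Nme1, upstream start, chr11:93968273-93968302, minus strand: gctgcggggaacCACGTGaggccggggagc
Nme1, downstream start, chr11:93968037-93968066, minus strand: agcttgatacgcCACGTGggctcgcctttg
Paics, chr5:76951087-76951116, plus strand: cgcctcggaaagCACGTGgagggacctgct
Tyms, chr5:30073669-30073698, minus strand: aaccacttctgtCACGTGggggcggggtct
Ppat, nearer word, chr5:76951718-76951747, minus strand: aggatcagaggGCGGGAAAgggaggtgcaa
Ppat, farther word, chr5:76951771-76951800, minus strand: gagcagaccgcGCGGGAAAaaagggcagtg

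This pattern was noticed after the values were seen and is a description of 6 genes. It holds for the main fit: as given above, the call of Tyms was lost with median-ratio scaling and that of Atic on the TPM scale. Among the 23 genes of the set whose promoter held no E-box, 7 had a lower TCR effect under the Foxp3 guide, 9 a higher one and 7 neither. Over all tested genes with a promoter in the table, 30.7% of 1245 with an E-box had a lower effect, against 30.1% of 9636 without one, and 22.5% had a higher effect, against 19.7%. A word in a window is not a bound site, and its absence says only that these letters are not there.

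Other genes of the same pathways, grouped in lists by function, gave a mixed picture, to be read against the shares of all tested genes given above (34.2% higher and 29.1% lower with the Foxp3 guide at 0 h, 30.7% and 30.8% at 3 h, and 40.8% higher and 44.5% lower with stimulation under the Foxp3 guide, 40.9% and 40.9% under the control guide). Of 21 purine conversion and salvage genes, 10 were higher and 5 lower with the Foxp3 guide at 0 h and 15 and 3 at 3 h. With TCR stimulation 13 were higher and 5 lower (Foxp3 guide) and 13 and 4 (control guide). Ak4, a mitochondrial adenylate kinase, led the rises with stimulation, with 16.9 and 18.1 CPM (Foxp3 guide) and 43.2 and 41.1 CPM (control guide) at 3 h, against 0.280 and 0.247 CPM and 0.827 and 0.979 CPM at 0 h. It also had the largest fall of this list with the Foxp3 guide at both times, by log2 changes of -1.77 ± 0.237 and -1.26 ± 0.0591. Adk, adenosine kinase, had the largest rise with the guide at 0 h, at 34.6 and 34.2 CPM against 11.9 and 11.7 (1.54 ± 0.0545), and Ak1 that at 3 h, at 3.33 and 2.96 CPM against 1.04 and 0.873 (1.70 ± 0.17). Ampd1, an AMP deaminase below 1 CPM throughout, had the largest fall with stimulation, by -2.75 ± 0.376 (Foxp3 guide) and -1.93 ± 0.367 (control guide).

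Pyrimidine conversion held a pair of isoenzymes that moved apart. Of 8 tested genes, 5 were higher and 2 lower with the Foxp3 guide at 0 h and 2 and 2 at 3 h, and with stimulation 5 were higher and 2 lower (Foxp3 guide) and 6 and 2 (control guide). Ctps, a CTP synthase, had 251 and 255 CPM (Foxp3 guide) and 201 and 202 CPM (control guide) at 3 h, against 14.5 and 13.9 CPM and 10.3 and 10.6 CPM at 0 h. Ctps2, the other CTP synthase, had 12.4 and 12.9 CPM and 25.9 and 24.0 CPM at 3 h, against 85.4 and 86.7 CPM and 123 and 125 CPM at 0 h. Ctps rose by 4.15 ± 0.0432 and 4.26 ± 0.0474 and Ctps2 fell, by changes of -2.76 ± 0.0493 and -2.32 ± 0.0474, the same opposition as between Prps1 and Prps2. Ctps2 also had the largest fall of this list with the guide at both times, by -0.53 ± 0.0413 at 0 h and -0.97 ± 0.0552 at 3 h. The largest rises with the guide were Upp1, uridine phosphorylase, at 0 h (0.74 ± 0.07) and Cmpk1, a UMP and CMP kinase, at 3 h (0.51 ± 0.0442).

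Deoxynucleotide supply genes outside the 9 had no common direction with the guide. The shares that were higher lay near those of all tested genes. The shares that were lower stood above those of all tested genes (29.1% at 0 h and 30.8% at 3 h), with median log2 changes of -0.082 and -0.215. Of 14, 4 were higher and 7 lower with the Foxp3 guide at 0 h and 4 and 6 at 3 h, and with stimulation 4 were higher and 8 lower (Foxp3 guide) and 5 and 7 (control guide). Samhd1, which breaks down deoxynucleotide triphosphates, had 223 and 233 CPM (Foxp3 guide) and 437 and 431 CPM (control guide) at 3 h, against 1210 and 1201 CPM and 1730 and 1733 CPM at 0 h, and was the largest fall with the guide at 3 h, by -0.93 ± 0.0411. Nme4, a low mitochondrial relative of Nme1, had the largest rise with the guide at both times, by 1.60 ± 0.222 at 0 h and 1.44 ± 0.257 at 3 h. Dctd, dCMP deaminase, which supplies dUMP, rose with stimulation by 3.596 ± 0.0821 (Foxp3 guide) and 3.29 ± 0.0796 (control guide), unlike Tyms, and was the largest fall with the guide at 0 h, by -0.84 ± 0.116. Cmpk2, a mitochondrial nucleotide kinase, had the largest fall with stimulation, by -3.32 ± 0.109 and -3.38 ± 0.118.

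Folate, glycine and methionine genes gave 6 higher and 10 lower of 25 with the Foxp3 guide at 0 h and 8 and 8 at 3 h, and 15 higher and 10 lower with stimulation under each guide. Slc19a1, the reduced folate carrier, had 225 and 225 CPM (Foxp3 guide) and 197 and 195 CPM (control guide) at 3 h, against 8.82 and 8.38 CPM and 13.2 and 12.8 CPM at 0 h, and rose most with stimulation under the Foxp3 guide, by 4.71 ± 0.0462. Under the control guide the largest rise was that of Cbs, cystathionine beta-synthase, which stayed below 0.6 CPM in each library. Amt, the aminomethyltransferase of glycine cleavage, had 0.0816 and 0.0243 CPM (Foxp3 guide) and 0.377 and 0.236 CPM (control guide) at 3 h, against 2.25 and 2.33 CPM and 4.11 and 4.47 CPM at 0 h, the largest fall with stimulation under both guides and with the guide at 3 h. Slc46a1, the proton-coupled folate transporter, had the largest fall with the guide at 0 h, by -1.87 ± 0.156.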

How the data were processed

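Stranded RNA-seq libraries of 8 nTreg samples were analysed from 2 tables of the whole series. Per the submitters' processing notes, reads were handled with Trim Galore 0.6.3, STAR 2.7.9a and RSEM 1.3.1 on mouse build mm10 (GRCm38); the annotation release is not given in the sources used here. Expected count values, 1 per gene and library, were deposited by the authors and were rounded to integers here. The TPM values per gene, also deposited by the authors, served to compare levels between genes and as another scale. All columns were matched to libraries by their names. Libraries of a group differed beyond sampling noise (chi-square of 4.25 to 6.81 a gene), so each was kept as a separate sample.

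Genes were filtered with filterByExpr (16642 of 55665 kept), scaled by TMM and fitted with edgeR 4.0.16 (limma 3.58.1, R 4.3.3; robust quasi-likelihood) to all 8 libraries with 1 mean per group. This left 4 residual degrees of freedom beside a median prior of 19.1, and the common biological coefficient of variation was 3.41%. A gene was called at a Benjamini-Hochberg adjusted p below 0.05 over all genes tested; these are the adjusted p-values given, and SEs are of log2 changes. The scripts recovered known changes in simulated counts where a small set of genes was changed and all others were equal between groups. Such counts cannot show how scaling behaves where as many genes change as here.

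The 32 genes, the lists and the tests were chosen with earlier results of these data known. Named besides them were Foxp3 and, of each list of other pathway genes, the called gene with the largest rise and the largest fall in each guide effect and each TCR effect. One gene that this rule names is not reported here. All 32 gene identifiers matched GENCODE M21, which gave loci and neighbours. Promoters are from RefSeq (GRCm38.p6); Pfas, Dhodh and Aldh1l2 were not in that table. Alternatives were DESeq2 1.42.0, scaling by upper quartile or median ratio, limma-trend on log2(TPM+1) and log2(TPM+0.1), limma-voom, other filters, other thresholds, replicate number as a block, and each library left out. Adding the counts of gene models that share sequence with a member was chosen after seeing the data. Counting intervals cover counting error only.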

Additional observations from a re-analysis of the deposited data

How the results depend on the processing

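TCR effects were stable: with each guide the count of members higher at 3 h and the count lower did not move by more than 1.5 times under the alternatives run, apart from the 2-fold minimum with the control guide (4 lower). Leaving out any 1 library, 18 to 20 members were higher and 4 to 5 lower in the guide effect at 0 h, 20 to 22 and 5 to 5 at 3 h, and 9 to 11 and 10 to 13 in the difference of TCR effects. A 2-fold minimum kept 2586, 2760, 8484, 7662 and 1557 genes in the guide effects at 0 h and 3 h, the TCR effects with the Foxp3 and the control guide and their difference, with 9 members higher and 0 lower, 8 and 0, 19 and 6, 20 and 4, and 1 and 1.

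On the TPM scale the guide effects moved toward lower values. Members lower at 0 h numbered 13 on log2(TPM+1), 13 on log2(TPM+0.1) and 12 with all 27609 genes above 0 TPM, and at 3 h 12 members were higher on each, with 10, 10 and 9 lower. The difference called 4843 genes with all genes on that scale. Of all calls, 27.9% were higher at 0 h on log2(TPM+1) against 54.0% of counts, 27.4% against 49.9% at 3 h, 38.7% against 47.8% and 37.3% against 50% for the TCR effects, and 51.5% against 39.7% for the difference. These changes took the opposite sign to the count model. At 0 h they were Prps1 at -0.017, Prps2 at -0.037 and -0.038, Adsl at -0.175 and -0.178, Atic at -0.266 and -0.271, Gmps at -0.169 and -0.181, Umps at -0.005, Phgdh at -0.132 and -0.134 and Mthfd1 at -0.241 and -0.253. At 3 h they were Ppat at -0.018, Gart at -0.065, Pfas at -0.161 and -0.163, Paics at -0.192 and -0.194, Adsl at -0.022, Cad at -0.098 and -0.099, Nme1 at -0.013 and Shmt1 at -0.034. With stimulation they were Dtymk at -0.104 and -0.105 (Foxp3 guide) and Dut at -0.101 and -0.104 (control guide). The cause was not tested.

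The labels do not say whether replicate numbers pair the libraries. Deviations of same-numbered libraries correlated at -0.0989 to 0.071 across 16642 genes, but 2 libraries a group cannot decide whether they were paired. With a replicate block 10319, 10034, 14111, 13527 and 7240 genes were called, against 10539, 10231, 14208, 13620 and 7457, and 2 member calls were lost, that of Cad at 3 h (adjusted p = 0.051) and that of Pfas in the difference (adjusted p = 0.0531). Depth limits Aldh1l2 most, with 1 to 66 counts a group.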
